A study of Mus musculus with 6 samples.

Results

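Aminoacyl-tRNA synthetases are the enzymes that join each amino acid to its transfer RNA, and 38 of the 24532 genes in the deposited table belonged to this family. They were chosen by gene symbol (a letter followed by ars, with or without a final 1 or 2, and Farsa, Farsb, Eprs and Tarsl2), and all 38 passed the filter on low counts. The choice of symbols used no measured value, but the family was taken up because Lars2 was already known to be higher in knockout muscle, so the values of Lars2 are given as a description. Whether it passes a threshold is reported only as what led to the choice and supports nothing here. The family held 19 genes for cytosolic enzymes, 2 (Gars and Kars) whose genes make both a cytosolic and a mitochondrial enzyme, and 17 for mitochondrial enzymes. Tarsl2 was placed among the cytosolic genes although its symbol ends in 2, because its product is a second cytosolic-type threonyl-tRNA synthetase.

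RNA was measured in whole gastrocnemius, the large calf muscle, of C57BL/6 mice aged 12 weeks. The knockout group was 3 mice labelled Ckmm-Cre; USP21 flox/flox, in which a Cre recombinase under the muscle creatine kinase promoter acts on floxed alleles of the ubiquitin-specific protease gene Usp21. The control group was 3 mice labelled USP21 flox/flox, whose genotype is also entered as Litter, so both groups carried the floxed alleles and only the knockouts carried Cre. The series asks how loss of Usp21 in muscle fibres alters the muscle transcriptome, and the comparison was knockout against control. This promoter drives Cre in striated muscle, so other cells of the tissue are not its target, and in whole tissue fewer cells of a type and less RNA per cell cannot be told apart.

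A synthetase activates its amino acid with ATP and transfers it to the matching transfer RNA, which then delivers it to the ribosome. Mitochondria translate the few proteins of their own genome with a separate set of synthetases, which are encoded in the nucleus and imported, so most amino acids have a pair of genes. There is no separate mitochondrial enzyme for glutamine in mammals, where an amidotransferase makes the charged transfer RNA from glutamate. Synthetases fall into class I and class II by the fold of the catalytic domain. In the cytosol, 8 of the enzymes (Eprs, Iars, Lars, Mars, Qars, Rars, Kars and Dars) are held with 3 scaffold proteins in the multi-synthetase complex. Many cytosolic synthetase genes are targets of ATF4, the transcription factor of the amino acid response.

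Promoter sequences from RefSeq (GRCm38.p6, the assembly that mm10 names; 250 bases before the transcription start to 50 after it) were found for 28 of the 38 genes. The one that stood apart in expression, Lars2, is shown with the 3 whose promoters held the ATF4 composite motif (TGATGNAAT, read on both strands). All 4 lie on the plus strand: Lars2 at chr9:123366677-123366976, Iars at chr13:49681880-49682179, Aars at chr8:111033592-111033891 and Gars at chr6:55037751-55038050. The Aars window lies inside the gene as mapped (111027778 to 111055569), so its start site is an internal one. Capitals mark matches to any of 6 motifs searched on both strands: the ATF4 motif, the NRF1 motif, an estrogen-related receptor site (TCAAGGTCA), the core of a YY1 site (ATGGCGG), the E-box (CACGTG) and an ETS site (CCGGAAG). None of the 6 overlaps another in these 4 windows.
Lars2: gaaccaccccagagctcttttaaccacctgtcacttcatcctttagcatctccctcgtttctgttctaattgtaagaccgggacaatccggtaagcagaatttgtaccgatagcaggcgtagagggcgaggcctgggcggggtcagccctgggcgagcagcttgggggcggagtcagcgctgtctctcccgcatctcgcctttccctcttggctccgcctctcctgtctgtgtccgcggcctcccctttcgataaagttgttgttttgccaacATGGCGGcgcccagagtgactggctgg
Iars: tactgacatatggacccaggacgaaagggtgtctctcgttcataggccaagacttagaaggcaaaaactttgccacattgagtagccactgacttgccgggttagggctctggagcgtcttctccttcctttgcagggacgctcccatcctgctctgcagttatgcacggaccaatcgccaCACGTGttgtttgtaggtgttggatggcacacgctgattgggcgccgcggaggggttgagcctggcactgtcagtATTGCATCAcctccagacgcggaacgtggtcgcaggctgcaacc
Aars: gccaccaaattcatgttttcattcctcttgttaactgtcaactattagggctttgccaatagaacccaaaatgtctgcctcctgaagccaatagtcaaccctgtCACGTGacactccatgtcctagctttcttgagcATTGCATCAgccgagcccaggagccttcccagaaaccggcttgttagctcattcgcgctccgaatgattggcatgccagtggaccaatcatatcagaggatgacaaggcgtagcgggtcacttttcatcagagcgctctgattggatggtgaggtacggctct
Gars: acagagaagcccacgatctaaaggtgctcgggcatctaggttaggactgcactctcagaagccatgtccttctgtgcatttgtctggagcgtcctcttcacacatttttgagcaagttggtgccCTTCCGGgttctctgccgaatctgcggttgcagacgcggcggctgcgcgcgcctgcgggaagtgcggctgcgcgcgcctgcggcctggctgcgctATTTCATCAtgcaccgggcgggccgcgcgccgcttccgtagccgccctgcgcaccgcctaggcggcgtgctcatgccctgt

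In the Lars2 window the capitals are a YY1 core starting at base 24 after the start site, and none of the other 5 motifs was found in those letters. In the Iars, Aars and Gars windows the ATF4 motif appears on the opposite strand, starting at positions 7, -113 and -31 from the start site. Over the family, the ATF4 motif was in promoters of 3 of the 28 genes, all for cytosolic or dual enzymes. Among all 32851 promoters listed, 0.965% held it. The 28 genes had 29 listed promoters, so the family is counted in genes and the background in promoters. Genes without a listed promoter were not searched, among them the cytosolic Cars, Hars, Lars, Nars, Rars, Vars and Wars. The YY1 core was in 6 of 28, of which 5 were mitochondrial (Aars2, Ears2, Lars2, Tars2 and Yars2) and 1 was Kars, against 4.05% of all promoters. NRF1 letters were in 5 (Farsb, Iars2, Kars, Mars2 and Tars; 4.6% of all), ETS letters in 9 (8.86% of all), E-boxes in 5 (7.15% of all) and the estrogen-related receptor site in 0 (0.423% of all). These are matches of letters, not sites of binding.

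Total counts ran from 53906493 to 65425324 in knockout libraries and from 48658436 to 67332846 in control libraries, and the synthetase genes took 0.215% to 0.222% of knockout counts and 0.197% to 0.206% of control counts. Without Lars2 the shares overlapped, at 0.204%, 0.195% and 0.199% in knockouts and 0.196%, 0.202% and 0.193% in controls. Within the family the lowest count in any library was 117 (Pars2) and the highest was 21591 (Eprs), so every member was well above the 3 counts that a count of 0 allows. Usp21 itself stood at 9.08, 7.19 and 7.47 CPM (counts scaled to library size) in knockouts and at 19.3, 19.3 and 19.2 CPM in controls. All 8 skeletal muscle markers (Acta1, Ckm, Myh4, Myh1, Myh2, Mylpf, Tnnt3 and Mb) were detected, and their sum ran from 160145 to 188125 CPM in knockouts and from 140444 to 171731 CPM in controls. Control 3 stood apart in slow-fibre genes: the 8 slow markers summed to 1033, 706 and 1748 CPM in knockouts and to 1467, 1440 and 161 CPM in controls. The 6 fibroblast markers, all detected, summed to 2607, 2481 and 2181 CPM in knockouts and 1670, 2229 and 1429 CPM in controls; at an unadjusted p under 0.05, 3 of them were higher in knockouts (6.56% of all genes), and DESeq2 called 1, Col3a1 (edgeR adjusted p = 0.295). DESeq2 called many more genes than edgeR, with 1.55% of all genes higher and 0.59% lower, against 0.0354% and 0.0213% by edgeR and 0.0284% and 0.00709% by limma-voom. Leukocyte markers (6 of 6 detected) summed to 73.4 to 119 CPM in knockouts and 74.3 to 130 CPM in controls, and endothelial markers (5 of 5 detected) to 261 to 285 CPM and 255 to 316 CPM. The part of these in the synthetase values was not tested.

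Lars2, the gene of the mitochondrial leucyl-tRNA synthetase, was the 1 synthetase gene that set the groups far apart. Knockouts 1, 2 and 3 had 131, 211 and 239 CPM, and controls 1, 2 and 3 had 34.8, 36.9 and 40.9 CPM. The lowest knockout was 3.19 times the highest control, so the groups did not overlap, and knockout 1 was well below the other knockouts. The difference was 2.36 on the log2 scale (SE 0.22), a 5.15-fold higher level. Lars2 is a class I enzyme gene on chromosome 9 (Entrez 102436; mm10, 123366927 to 123462675) with 21 exons in its longest coding transcript. It was the only synthetase among the 5 genes of the whole table (0.0354% of those tested) that edgeR called higher at an adjusted p under 0.05. Since the family was taken up for this gene, that call is no separate support. The call was not made without knockout 2, control 1, control 2 or control 3, where the difference ran from 2.297 to 2.43 on the log2 scale.

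Lars, the gene of the cytosolic leucyl-tRNA synthetase, which in mammalian cells is also known as a leucine sensor for the growth regulator mTORC1, lay near its control level. Its level was 43.2, 42.6 and 50.9 CPM in knockouts and 46.0, 46.8 and 45.55 CPM in controls, with overlapping groups (log2 fold change -0.017, SE 0.089; edgeR adjusted p = 0.958). On the per-length scale of FPKM (fragments scaled to gene length and library size), the ratio of Lars2 to Lars was 2.88, 4.79 and 4.56 in knockouts and 0.728, 0.753 and 0.868 in controls. The mitochondrial enzyme's transcript was therefore the higher of this pair in each knockout and the lower in each control. In 14 amino acids, with the main cytosolic gene as partner (Tars, not Tarsl2, for threonine), the mitochondrial gene was below its cytosolic partner in every control library for all 14 pairs, and in every knockout library for 13.

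**Figure D1:**
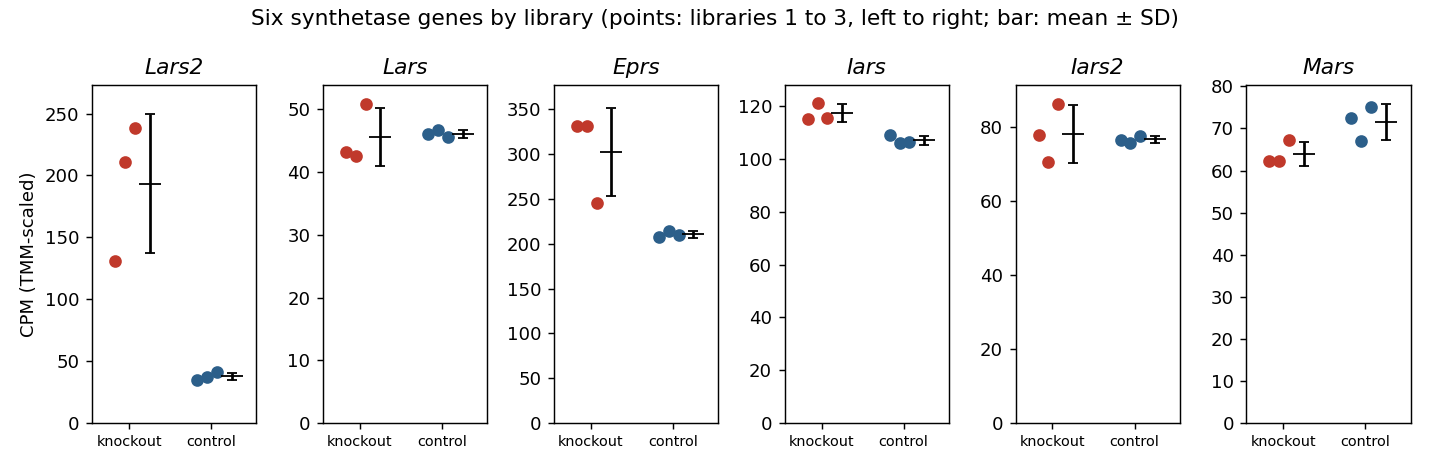
CPM (vertical axes, each starting at 0) of Lars2, Lars, Eprs, Iars, Iars2 and Mars in the 3 knockout libraries (red, left) and the 3 control libraries (blue, right), with the mean and SD of each group in black. Lars2 separates widely (131 to 239 CPM in knockouts and 34.8 to 40.9 CPM in controls), Eprs and Iars separate by less, and Lars, Iars2 and Mars overlap.

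Per length, Lars2 moved up the order of the family. Its FPKM was 32.1, 49.4 and 59.9 in knockouts, against 8.94, 9.71 and 10.05 in controls. By mean FPKM it ranked 3 of 38 in knockout muscle and 26 of 38 in control muscle, and among the 17 mitochondrial genes it ranked 1 in knockouts and 5 in controls. It made up 22.4%, 32.6% and 34.3% of the summed FPKM of the mitochondrial synthetase genes in knockouts, and 7.21%, 7.60% and 8.45% in controls. The other 16 mitochondrial genes summed to 111, 102 and 115 FPKM in knockouts and to 115, 118 and 109 FPKM in controls, so their sum overlapped between the groups. The gene length implied by the counts and FPKM of Lars2 ran from 3961 to 4052 bases over the 6 libraries, so the authors' FPKM used about the same length in both groups.

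**Figure D2:**
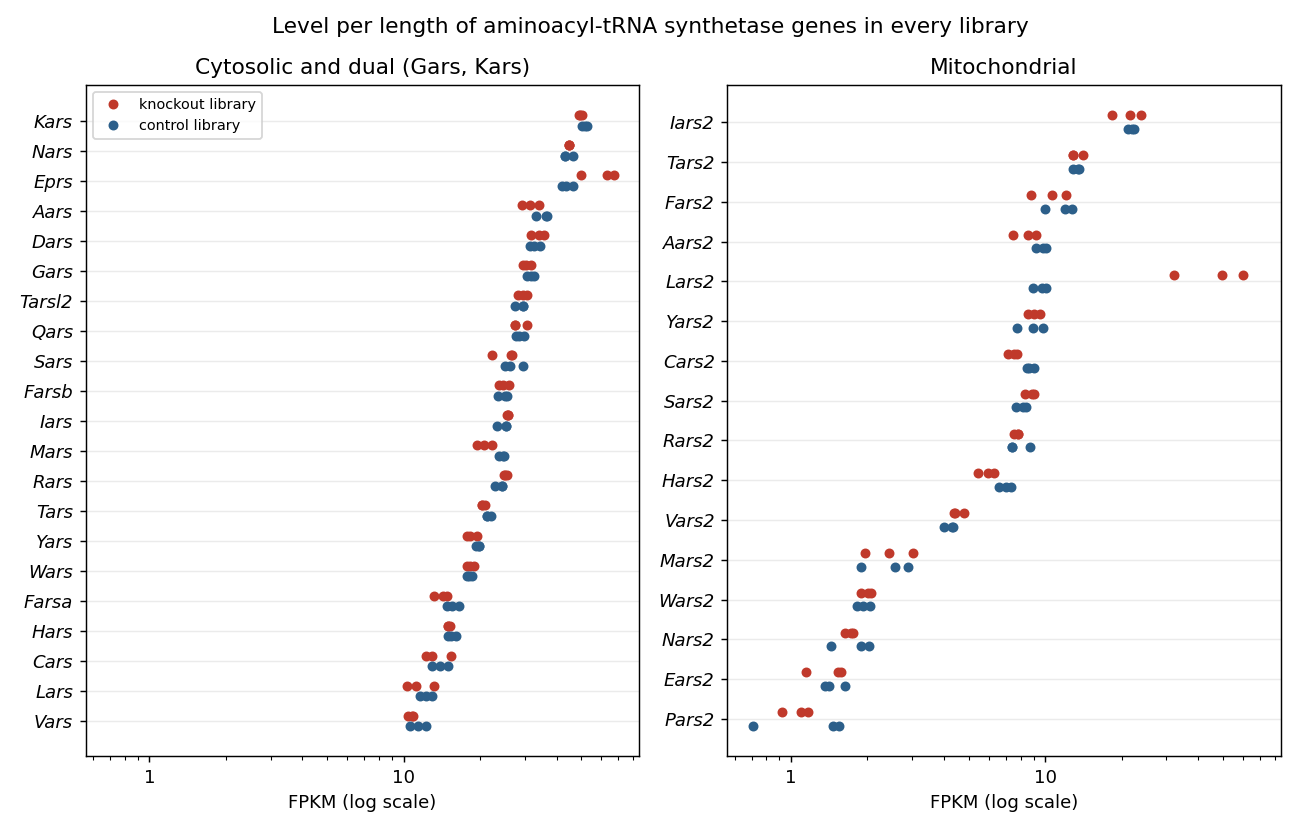
FPKM (horizontal axis, log scale) of 37 synthetase genes in each knockout library (red, upper row of each gene) and control library (blue, lower row), ordered by the control mean, with cytosolic and dual genes on the left and mitochondrial genes on the right. The knockout points of Lars2 (32.1 to 59.9 FPKM) lie above every other mitochondrial gene shown, while its control points (8.94 to 10.05 FPKM) lie in the upper middle of the mitochondrial genes.

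Part of the Lars2 transcript is shared with another RNA. In GENCODE M21, 72 bases of its longest coding transcript (bases 3278 to 3349 of 3894, after the coding sequence, which ends at base 2905) matched Gm15564, an antisense RNA gene, on the same strand with 98.6% identity. Gm15564 is not among the gene symbols of the deposited table, so no counts are given for it there. How reads from those bases were counted was not tested. Whether the Lars2 transcript also matches the ribosomal RNA precursor was not tested, since that sequence was not used here, and its CPM is limited by this. Rn45s, the ribosomal RNA precursor, stood at 1457, 2676 and 3002 CPM in knockouts and at 2255, 1310 and 1868 CPM in controls (log2 fold change 0.39, SE 0.29; edgeR adjusted p = 0.644). The groups overlapped for Rn45s and not for Lars2, and the order of the libraries was the same for both within the knockouts but not within the controls, where control 1 was lowest in Lars2 and highest in Rn45s. Lars2 was 8.96%, 7.87% and 7.95% of Rn45s in knockouts and 1.54%, 2.82% and 2.19% in controls. The part of ribosomal RNA in the Lars2 values was not tested.

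**Figure D3:**
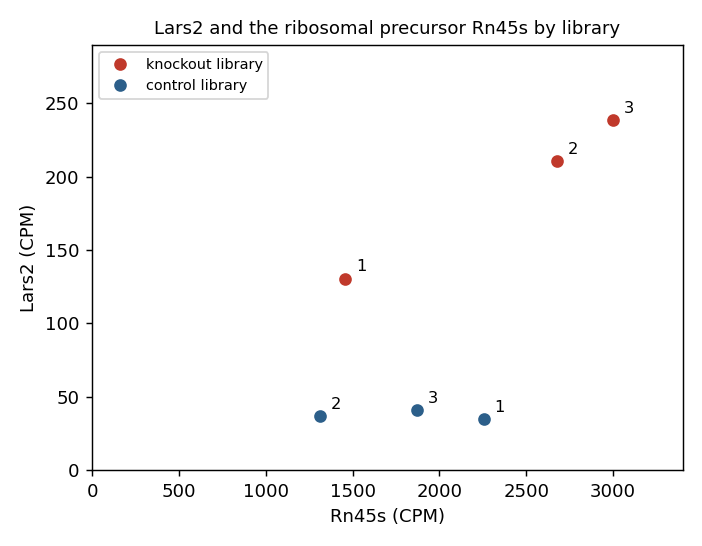
Lars2 (vertical axis, CPM) against Rn45s (horizontal axis, CPM) in the 3 knockout libraries (red) and 3 control libraries (blue), numbered by replicate. All 3 knockout points lie above all 3 control points on the Lars2 axis. Control 1 (2255 CPM of Rn45s) had 34.8 CPM of Lars2 and knockout 1 (1457 CPM of Rn45s) had 131 CPM.

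The other mitochondrial synthetases lay close to their control levels. Their 16 log2 fold changes had a median of 0.024, with 10 above 0 and 6 below, against a median of -0.0037 over all 14109 genes tested. By edgeR at an adjusted p under 0.05, 0 of the 16 were called in either direction. At an unadjusted p under 0.05 there were also 0, against 11.6% of all genes. DESeq2 and limma-voom also called 0 of them. The range was -0.20 (Pars2, prolyl, SE 0.26) to 0.19 (Sars2, seryl, SE 0.086). Over all genes 0.0567% were called, a share so small that 0 of 16 does not set these genes apart.

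A few of these genes had groups that did not overlap, at differences far smaller than that of Lars2. Vars2, the mitochondrial valyl enzyme gene, had 21.7, 21.2 and 19.7 CPM in knockouts and 18.7, 18.2 and 18.3 CPM in controls (0.18, SE 0.078; edgeR adjusted p = 0.439). Sars2 had 17.7, 18.3 and 16.1 CPM in knockouts and 15.8, 14.9 and 15.1 CPM in controls (0.19, SE 0.086; edgeR adjusted p = 0.462). In the other direction, Hars2, the histidyl enzyme gene, had 19.97, 18.4 and 19.0 CPM in knockouts and 20.2, 21.9 and 22.8 CPM in controls (-0.18, SE 0.084; edgeR adjusted p = 0.472). Cars2, the cysteinyl enzyme gene, had 14.6, 14.3 and 14.3 CPM in knockouts and 15.5, 15.9 and 16.5 CPM in controls (-0.15, SE 0.079; edgeR adjusted p = 0.516). In these 4 of 16 genes the groups were fully apart, and 17.3% of all genes tested had groups that did not overlap.

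Iars2, the isoleucyl enzyme gene and the most abundant mitochondrial synthetase per length in controls, had 77.6, 70.3 and 86.1 CPM in knockouts and 76.5, 75.6 and 77.5 CPM in controls (0.027, SE 0.091; edgeR adjusted p = 0.935). The knockouts lay on both sides of the controls. Tars2 (threonyl, 0.073), Rars2 (arginyl, 0.052), Yars2 (tyrosyl, 0.12), Wars2 (tryptophanyl, 0.12), Mars2 (methionyl, 0.088), Ears2 (glutamyl, 0.021) and Nars2 (asparaginyl, 0.016) had positive log2 fold changes that did not pass. Aars2 (alanyl, -0.14) and Fars2 (phenylalanyl, -0.051) had negative ones that did not pass. Pars2 was the least abundant member, with 2.73, 2.32 and 2.54 CPM in knockouts and 3.31, 3.55 and 1.89 CPM in controls, and its control spread (30.7% of the mean) was the widest among members other than Lars2.

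**Figure D4:**
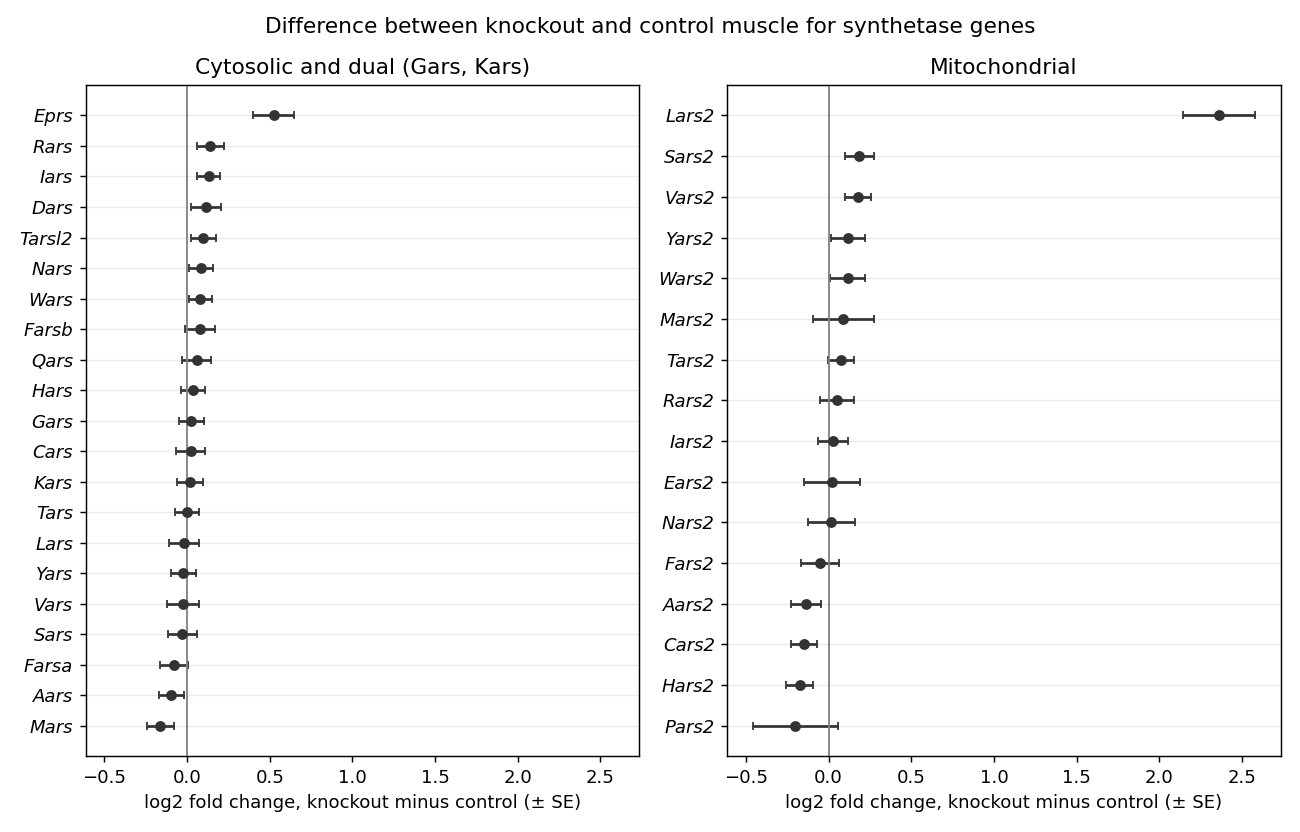
Log2 fold change (horizontal axis, knockout minus control, bars ± SE from edgeR) of 37 synthetase genes, with cytosolic and dual genes on the left and mitochondrial genes on the right. Lars2 lies at 2.36, Eprs at 0.52, and all others shown between -0.20 and 0.19.

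The cytosolic synthetases were close to the control level. The 19 log2 fold changes had a median of 0.034, with 12 above 0 and 7 below, and the dual genes Gars (glycyl, 0.027, SE 0.078) and Kars (lysyl, 0.016, SE 0.079) lay near it. By edgeR at an adjusted p under 0.05, 0 of the 19 were called; 1, Eprs, had an unadjusted p under 0.05 (6.56% of all genes were higher and 5.07% lower at that level). DESeq2, which called 1.55% of all genes higher, called 1 of them, again Eprs, and limma-voom called 0. The median absolute log2 fold change was 0.079 for the 19 cytosolic genes and 0.10 for the 16 mitochondrial genes without Lars2, against 0.15 for all genes tested. The median SE was 0.080, 0.097 and 0.14 in the same order, so the sets also differed in precision.

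Eprs, whose product joins glutamyl- and prolyl-tRNA synthetase in 1 protein and belongs to the multi-synthetase complex, had the largest difference among the 37 members other than Lars2. It stood at 331, 331 and 245 CPM in knockouts and at 207, 214 and 210 CPM in controls. The groups did not overlap, and knockout 3 lay closer to the controls than to the other knockouts. The log2 fold change was 0.52 (SE 0.13) and did not pass (edgeR adjusted p = 0.289). It passed without knockout 3 (0.65, edgeR adjusted p = 0.0267) and with DESeq2 (adjusted p = 0.0107), and over all alternatives its adjusted p ran from 0.0107 to 0.763. Per length Eprs ranked 1 of 38 in knockouts (67.1, 63.0 and 49.7 FPKM) and 3 of 38 in controls (43.4, 46.3 and 41.9 FPKM). Its neighbour Iars2, 31998 bases away on chromosome 1, had overlapping groups.

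The remaining members of the complex differed by less. Iars, the isoleucyl enzyme gene, had 115, 121 and 115 CPM in knockouts and 109, 106 and 106 CPM in controls, with no overlap (0.13, SE 0.071; edgeR adjusted p = 0.529). Mars, the methionyl enzyme gene, had 62.2, 62.4 and 67.3 CPM in knockouts and 72.5, 66.95 and 75.2 CPM in controls, where knockout 3 lay just above control 2 (-0.16, SE 0.080; edgeR adjusted p = 0.495). Rars (arginyl, 0.14), Dars (aspartyl, 0.12) and Qars (glutaminyl, 0.059) had positive values that did not pass. Over the 8 enzymes the median was 0.087, and over the 13 cytosolic and dual genes outside the complex it was 0.023. The median position of the 8 against their control means was 0.034, 0.13 and 0.11 in knockouts 1 to 3 and -0.0096, -0.036 and 0.041 in controls 1 to 3 on the log2 CPM scale, so knockout 1 lay within the range of the controls. Among the scaffold proteins, Aimp2 had 176, 209 and 124 CPM in knockouts and 115, 94.2 and 172 CPM in controls (0.42, SE 0.26; edgeR adjusted p = 0.580), Eef1e1 was at 0.058 and Aimp1 at 0.017.

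Outside the complex, Nars, the asparaginyl enzyme gene, had 120.5, 128 and 120.5 CPM in knockouts and 112, 117 and 118 CPM in controls, with no overlap but a difference of only 0.084 (SE 0.073; edgeR adjusted p = 0.693). Of the cytosolic genes, 3 (Eprs, Iars and Nars) had knockouts above all controls and 0 had knockouts below all controls, against 8.38% and 8.87% of all genes tested. Aars, the alanyl enzyme gene with the ATF4 motif shown above, had 119, 117 and 129 CPM in knockouts and 133, 129.5 and 128 CPM in controls (-0.095, SE 0.076; edgeR adjusted p = 0.669). Gars, another with that motif, had 77.3, 78.8 and 71.9 CPM in knockouts and 71.7, 73.9 and 78.2 CPM in controls. So of the 3 promoters with the motif, Iars, Gars and Aars stood at 0.13, 0.027 and -0.095, and none was called.

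The other cytosolic genes lay between -0.079 and 0.10. Tarsl2, the second threonyl gene, was at 0.10 (97.6 ± 5.42 CPM in knockouts and 91.1 ± 1.51 CPM in controls; SD, n = 3 each), and Tars, the main threonyl gene, was at 0.00016 with 56.2 ± 2.97 CPM in knockouts and 56.1 ± 1.57 CPM in controls. The subunits of phenylalanyl-tRNA synthetase, which work together as alpha and beta, were at -0.079 (Farsa) and 0.079 (Farsb). Wars (tryptophanyl) was at 0.081, Hars (histidyl) at 0.034, Cars (cysteinyl) at 0.023, Yars (tyrosyl) at -0.021, Vars (valyl) at -0.022 and Sars (seryl) at -0.027, and none passed.

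Levels across the 38 genes kept a similar order in both groups (Spearman's rho of mean FPKM 0.93, across genes, which share the libraries). In controls the cytosolic and dual genes ran from 11.4 FPKM (Vars) to 51.7 FPKM (Kars), and the mitochondrial genes from 1.24 FPKM (Pars2) to 21.9 FPKM (Iars2). Of the 17 mitochondrial genes, 14 lay below the lowest cytosolic gene in control muscle, and the other 3 were Iars2, Tars2 and Fars2. The median FPKM of cytosolic genes was 3.57, 3.54 and 3.50 times that of mitochondrial genes without Lars2 in knockouts, and 3.32, 3.22 and 3.39 times in controls. This ratio of medians, which rests on the genes in the middle of each list, was higher in each knockout than in each control. The summed FPKM of each set overlapped between the groups. Cytosolic genes summed to 479, 464 and 472 FPKM in knockouts and 465, 476 and 459 FPKM in controls. Mitochondrial genes without Lars2 summed to 111, 102 and 115 FPKM in knockouts and 115, 118 and 109 FPKM in controls. The median log2 fold changes of these sets were 0.034 and 0.024. Spread between libraries was small: the median coefficient of variation of the 37 members other than Lars2 was 5.26% in knockouts and 5.64% in controls, while that of Lars2 was 29.1% in knockouts and 8.19% in controls.

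By class, the medians lay close together. Of 17 class I genes other than Lars2, 12 were positive and 5 negative with a median of 0.052, and of 19 class II genes 11 were positive and 8 negative with a median of 0.016. By edgeR 0 of these 36 were called, and 0 had an unadjusted p under 0.05, against 0.0567% and 11.6% of all genes tested. DESeq2 and limma-voom called 0 of them too. Eprs holds a domain of each class and was left out of both counts.

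Overlap of gene bodies may limit a few members, since the sources used here do not say whether counting used the strand that the library kit preserves. Hars and Hars2 lie head to head on chromosome 18 and share 195 bases of exon on opposite strands, Iars2 shares 2034 bases with Rab3gap2 on the opposite strand, and Mars shares 67 bases with Ddit3 on the opposite strand. Aars shares 1326 bases with Exosc6 on the same strand and Tarsl2 122 bases with Tm2d3. The stretches of Iars2 and Aars start at bases 3438 and 4425 of GENCODE transcripts of 5471 and 5750 bases. The lengths implied by counts and FPKM were shorter, at 3578 to 3592 bases for Iars2 and 3755 to 3769 bases for Aars. These 2 stretches may therefore lie mostly or wholly outside the counted lengths, which was not tested. In all, 16 of 38 members matched a transcript of another gene over at least 50 bases with at least 95% identity. For the others no such match was found in GENCODE M21.

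Genes that work beside the synthetases were taken as 6 lists, and by edgeR 0 of their members passed at an adjusted p under 0.05. Limma-voom also called 0 of them, and DESeq2 called 1 higher, Slc3a2, against 1.55% of all genes. Of 27 measured genes of mitochondrial translation and mitochondrial transfer RNA maturation, 13 were positive and 14 negative, with a median of -0.0044; 1 was higher and 0 were lower at an unadjusted p under 0.05, against 6.56% and 5.07% of all genes. Those with the smallest p were Taco1, a translational activator of cytochrome oxidase subunit synthesis (47.5 ± 0.813 CPM in knockouts and 42.1 ± 2.48 CPM in controls, SD, n = 3 each; 0.18, edgeR adjusted p = 0.424), and Gtpbp3, a transfer RNA modification enzyme (10.02 ± 1.06 CPM in knockouts and 12.0 ± 0.708 CPM in controls; -0.26, edgeR adjusted p = 0.434). Of 13 related enzymes that edit, amidate or modify transfer RNA, 2 were positive and 11 negative, with a median of -0.090, and 3 were lower and 0 higher at an unadjusted p under 0.05, against 5.07% and 6.56% of all genes. Pusl1, a pseudouridine synthase family member (-0.31, edgeR adjusted p = 0.383), and Dtd2, which removes wrongly attached amino acids from transfer RNA (-0.33, edgeR adjusted p = 0.390), had the smallest p. The amidotransferase subunits Gatb (-0.024), Gatc (0.016) and Qrsl1 (-0.039), named after their values were seen, stayed near 0.

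Of 23 cytosolic translation factors, 13 were positive and 10 negative, with a median of 0.015. Eif1, which guards start codon choice (-0.25, edgeR adjusted p = 0.370), and Gspt1, a termination factor (0.20, edgeR adjusted p = 0.390), had the smallest p. At an unadjusted p under 0.05, 1 gene was higher and 1 lower, against 6.56% and 5.07% of all genes. ATF4 and its targets outside the family were spread widely, with 14 of 24 positive, a median of 0.036 and a range of -0.78 to 0.85. Slc3a2, the heavy chain of amino acid transporters, had 51.8, 55.1 and 45.9 CPM in knockouts and 39.9, 40.0 and 31.9 CPM in controls (0.45, SE 0.12; edgeR adjusted p = 0.305; DESeq2 adjusted p = 0.0417), and Trib3, a pseudokinase, had 1.18, 1.15 and 1.296 CPM in knockouts and 2.09, 2.22 and 1.66 CPM in controls (-0.72, SE 0.22; edgeR adjusted p = 0.350). At an unadjusted p under 0.05, 2 genes were higher and 3 lower, against 6.56% and 5.07% of all genes. Atf4 itself, named after its values were seen, was at -0.088 (SE 0.080; 190 CPM in knockouts and 201 CPM in controls). Every knockout of Atf4 lay below every control. In this list, 2 of 24 genes had knockouts above all controls and 4 below, against 8.38% and 8.87% of all genes tested.

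Of 11 genes of leucine sensing and leucine breakdown's first step, 5 were positive and 6 negative, with a median of -0.031, and at an unadjusted p under 0.05, 1 was higher and 3 lower, against 6.56% and 5.07% of all genes. Bcat1, the cytosolic aminotransferase of branched-chain amino acids, had 2.07, 2.44 and 0.986 CPM in knockouts and 0.937, 0.587 and 0.363 CPM in controls (1.55, SE 0.46; edgeR adjusted p = 0.344). Sesn2, a leucine sensor that is also in the ATF4 list, averaged 2.26 ± 0.567 CPM in knockouts and 3.45 ± 0.243 CPM in controls, with no overlap (SD, n = 3 each; -0.62, SE 0.22; edgeR adjusted p = 0.369). Bcat2, the more abundant mitochondrial aminotransferase, was at -0.32 (SE 0.12; edgeR adjusted p = 0.384; named after its values were seen).

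**Figure D5:**
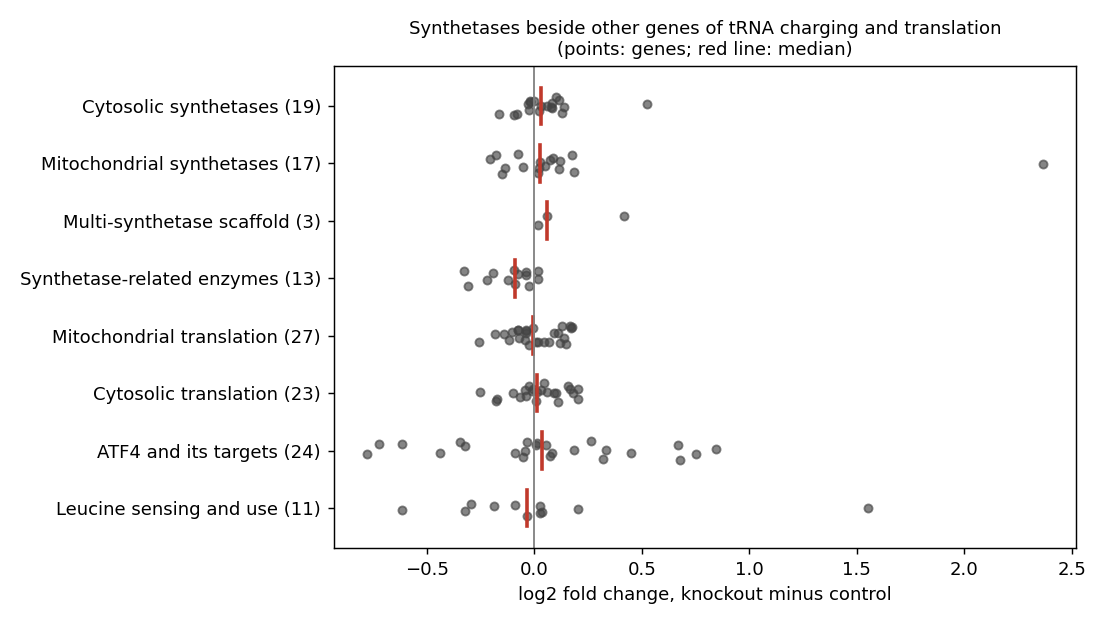
Log2 fold change (horizontal axis, knockout minus control) of each measured gene (points) in the synthetase groups and in 6 lists of genes that work beside them, with the median of each list as a red line and the number of genes in brackets. Lars2 (2.36) is the farthest point from 0, Bcat1 (1.55) is the next, and the medians of the 6 lists lie between -0.090 and 0.058.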

How the data were processed

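Poly(A)-selected, strand-preserving libraries of 3 knockout and 3 control muscles were sequenced, with RNA extracted by Trizol, per the labels' protocols. The deposited table gives whole-number read counts per gene, unnormalized per the file headers. Per the file headers, the authors also gave FPKM and TPM; FPKM was used for levels between genes and TPM was not used. StringTie 1.3.4d, Bowtie2 2.3.4.1, FastQC 0.11.7, bcl2fastq 2.20.0 and the build mm10 are named, without roles, per the submitters' processing notes. The counter and its strand setting: not given in the sources used here.

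The test was edgeR 4.0.16 (R 4.3.3): filterByExpr with a minimum count of 10, TMM, quasi-likelihood, and Benjamini-Hochberg adjustment over 14109 genes with a threshold of 0.05. SE came from the F statistic; the prior count for log2 CPM was 2. The test was tested on simulated data. Transcripts were compared with blastn 2.17.0. Members and lists were chosen with earlier results of these data known, and named list genes are the 2 with the smallest p. Counts and medians cover all 38 members, of which 1 is not reported here by itself. The labels do not say whether samples of a group came from separate litters, so each p-value reflects only how these samples vary. With 3 against 3, an exact permutation test cannot go below p = 0.1. Alternatives were DESeq2 1.42.0, limma 3.58.1 (voom, and log2 of FPKM plus 1 or plus 0.1), other scalings and filters, an adjusted p under 0.10, a replicate term, and leaving out each library.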

Additional observations from a re-analysis of the deposited data

How the results depend on the processing

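Lars2 was higher in knockouts under all 15 other settings, at log2 fold changes of 2.14 to 2.58. It was no longer past the threshold with limma on FPKM plus 1 (2.14), FPKM plus 0.1 (2.24) or the replicate block (2.32). The same held in edgeR without control 1, control 2, control 3 or knockout 2, while it ran from 2.18 to 2.58 without single libraries. Synthetases called higher were 2 with DESeq2 (Lars2 and Eprs), 0 with either FPKM scale or the replicate block, and 0 to 2 without single libraries, the 2 being without knockout 3; none was called lower in any setting. Over all genes, 5 higher and 3 lower became 210 and 80 with DESeq2, 1 and 0 with either FPKM scale, 0 and 0 with the replicate block, 4 and 1 with voom, and 1 to 120 and 0 to 21 without single libraries, the highest being without knockout 3. The cytosolic median was -0.034 and -0.036 with FPKM plus 1 and plus 0.1, and the median of mitochondrial genes without Lars2 was -0.033 and -0.047, where the median of all genes also moved, to -0.047 and -0.070; without single libraries the mitochondrial median ran from -0.0053 to 0.035. The cause of these differences was not tested.

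The labels give the same replicate numbers in both groups and state no pairing. Deviations of same-numbered libraries correlated at -0.0082, -0.19 and -0.098, and the highest value of any pair was 0.18 (knockout 2 with control 3). With 3 libraries in each group, these values cannot tell whether libraries were paired. The replicate block gave 0 calls. Of 37 members other than Lars2, 19 kept their sign in every setting and 18 changed it in at least 1, none of these being called with the changed sign. Median SE over the family was 0.088, which limits what can be seen at differences near 0.1.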

Other observations

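Around Lars2 on chromosome 9, 15 other tested genes lay within 500 kb. By edgeR 0 of them were called at an adjusted p under 0.05, DESeq2 and limma-voom also called 0, and 3 were higher and 1 lower at an unadjusted p under 0.05, against 6.56% and 5.07% of all genes. The nearest, Limd1, stood at 84.6, 89.3 and 93.7 CPM in knockouts and 102, 99.9 and 117 CPM in controls (-0.25, SE 0.090; edgeR adjusted p = 0.377). Every knockout of Limd1 lay below every control, in the direction opposite to Lars2. Of the 15 genes, 4 (Zfp105, Gm10052, Lztfl1 and Ccr1) had every knockout above every control, the direction of Lars2. Limd1 and Zkscan7 were the 2 with every knockout below. Over all genes tested, 8.38% lay fully above and 8.87% fully below. Whether the region changed as a whole was not tested.

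Among 12130 genes with a mean of at least 1 CPM, the 8 whose log2 CPM followed Lars2 most closely over the 6 libraries were Neb, Ift88, Ube2g2, Prickle3, Hivep2, Ucp3, Itgb3bp and Kmt2c, with Pearson's r from 0.978 to 0.997. These libraries fall into the same groups for each gene, so r is a description only. Ucp3, a mitochondrial uncoupling protein gene, had 512, 592 and 575 CPM in knockouts and 107, 105 and 136 CPM in controls. Neb, which encodes the giant thin-filament protein nebulin, had 5699, 6279.6 and 6250.3 CPM in knockouts and 4813, 4841 and 4915 CPM in controls. The synthetase most like Lars2 by this measure was Iars (r = 0.92).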
